A study of Rattus norvegicus with 6 samples.

Results

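The Cyp2c genes encode a large subfamily of cytochrome P450 enzymes of rat liver. Here 6 of them were described, Cyp2c7, Cyp2c11, Cyp2c12, Cyp2c13, Cyp2c22 and Cyp2c23, through the probe sets whose only gene symbol in the platform annotation is one of these names. They are 6 of 4736 genes named in this way. There were 12 such probe sets among 8740 that are not array controls: 3 for Cyp2c11, 3 for Cyp2c23, 2 for Cyp2c12, 2 for Cyp2c13, 1 for Cyp2c7 and 1 for Cyp2c22. Liver RNA was hybridized to 6 Affymetrix rat expression arrays (RG_U34A). In the NASH group, named for nonalcoholic steatohepatitis, 3 samples came from male Sprague Dawley rats on a liquid diet with 70% corn oil, supplying 220 kcal daily per unit of metabolic body mass. The Control group held 3 samples from male Sprague Dawley rats on a liquid diet with 5% corn oil at 187 kcal on the same basis. Both diets were given for 3 weeks by total enteral nutrition, in which the feed is infused through a tube, and fat content and energy supply differed together. Whether each array came from its own animal is not given in the sources used here, so the error behind every p-value is that between arrays and may be partly technical.

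P450 enzymes of the endoplasmic reticulum insert an oxygen atom into steroids, fatty acids, retinoids and drugs, with electrons passed on by the reductase Por. In the rat several Cyp2c genes are known for sex-dependent expression set by the rhythm of growth hormone secretion: Cyp2c11 and Cyp2c13 are typical of adult males, Cyp2c12 of adult females, and Cyp2c7 is more abundant in females than in males. Growth hormone acts on these genes through STAT5B and liver factors such as HNF4A and ONECUT1 (HNF-6).

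The genes lie on chromosome 1. In the RefSeq annotation of assembly GRCr8, Cyp2c12, Cyp2c13 and Cyp2c22 are consecutive protein-coding genes, and Cyp2c23 is set apart from Cyp2c22 by 51 other coding genes. The 4 members with known sex-dependent expression are shown by the 250 bases before their annotated start (RefSeq, GRCr8, 5′ to 3′ on the gene's strand), since these are the stretches in which the growth hormone dependent factors above could be looked for. Capitals mark letter matches on either strand to a TATA box (TATAAA), the ONECUT1 core (ATTGAT) and an HNF4A-type repeat (CAAAGNNCA).
Cyp2c7, chr1:247966144-247966393, plus strand: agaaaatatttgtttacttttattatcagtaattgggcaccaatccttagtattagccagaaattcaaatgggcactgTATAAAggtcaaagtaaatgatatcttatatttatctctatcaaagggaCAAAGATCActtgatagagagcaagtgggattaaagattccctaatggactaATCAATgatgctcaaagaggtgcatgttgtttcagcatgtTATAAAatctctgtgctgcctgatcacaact
Cyp2c11, chr1:246174966-246175215, plus strand: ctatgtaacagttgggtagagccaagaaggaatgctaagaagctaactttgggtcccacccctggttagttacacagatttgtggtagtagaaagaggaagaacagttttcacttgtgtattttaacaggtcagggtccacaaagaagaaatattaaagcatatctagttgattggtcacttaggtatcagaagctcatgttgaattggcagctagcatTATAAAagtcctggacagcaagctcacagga
Cyp2c12, chr1:248677035-248677284, minus strand: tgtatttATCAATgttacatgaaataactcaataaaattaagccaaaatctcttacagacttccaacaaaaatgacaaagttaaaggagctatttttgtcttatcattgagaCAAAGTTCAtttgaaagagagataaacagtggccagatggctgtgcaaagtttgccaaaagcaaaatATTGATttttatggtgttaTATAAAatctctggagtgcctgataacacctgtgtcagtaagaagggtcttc
Cyp2c13, chr1:248787189-248787438, minus strand: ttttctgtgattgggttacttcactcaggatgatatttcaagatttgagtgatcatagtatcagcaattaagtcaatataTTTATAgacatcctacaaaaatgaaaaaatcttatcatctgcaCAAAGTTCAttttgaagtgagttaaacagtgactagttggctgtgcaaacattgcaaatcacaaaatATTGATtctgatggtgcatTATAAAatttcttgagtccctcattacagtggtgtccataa

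The female-typical Cyp2c12 and its male-typical neighbour Cyp2c13 had the most similar windows of the 15 pairs among the 6 members, with 63.1% identical bases in a global alignment. Both held the letters CAAAGTTCA and ATTGAT. Cyp2c7 held CAAAGATCA and ATCAAT, while neither of these motifs matched in the Cyp2c11 window. Over the 33469 promoter windows of the same length in the table, 5.22% held the HNF4A-type letters, 7.10% the ONECUT1 core and 12.9% the TATA letters on either strand. The STAT5-type letters TTCNNNGAA, present in 7.67% of the windows, were in none of the 6. Cyp2c22 had a TATA match only, and Cyp2c23 no match in this window. These matches are letters and not known sites.

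Deposited trimmed mean signals (2% trimmed) lay between 73.6 and 117 over the 6 arrays, and values below are normalized signals, that is, the deposited MAS5 signals after quantile normalization between arrays. Differences are on the log2(signal + 2.21) scale, NASH minus Control, with the standard error of limma. Signals of different probe sets are not compared, because probes differ in how well they bind. NASH 2 stood apart by transcripts of fat and muscle: the summed normalized signal of 10 adipose markers on the array reached 4703 there, while NASH 1 and NASH 3 had 584 and 700.3, and Control 518 to 522. That of 15 skeletal muscle markers reached 2897, while NASH 1 and NASH 3 had 153 and 206, and Control 143 to 226. A sum over 20 hepatocyte markers, in which the brightest weigh most, gave 63178, 60742 and 60569 in NASH 1, 2 and 3, and 62524 to 66456 in Control. By single markers, NASH 2 was the lowest of the 6 arrays for 8 of the 20 and Control 3 for 6. The coagulation factor gene F10 read 1081, 483 and 811 in NASH 1, 2 and 3, against 1191, 1157 and 1641 in Control. The urea cycle gene Otc read 1139, 558 and 761 in NASH, against 1220, 1571 and 1094 in Control. This Otc probe set differed by −0.70, but a further one by 0.08. For other hepatocyte markers NASH 2 was the highest of the 6 arrays, such as Fgb (3863) and Tat (1183). Control 3 had the highest ratio of 3′ to 5′ actin signal, a measure of RNA quality, at 5.07 against 2.15 to 2.93 on the other arrays. It was also the lowest of the 6 arrays for 7 of the 12 Cyp2c probe sets, several of which belong to the same gene. The share over all probe sets was not taken, so this count has no background.

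None of the 12 Cyp2c probe sets passed the test between NASH and Control (limma, Benjamini-Hochberg adjusted p under 0.05 over 5244 tested probe sets), with adjusted p-values from 0.619 to 0.993. Over all tested probe sets 0.133% passed, 0.0953% higher and 0.0381% lower in NASH. All 12 members had passed the filter on dim probe sets, which used the mean over all arrays. For X55446mRNA_at of Cyp2c23 the mean log2 was 3.85 in Control, below the filter value of 3.94, and 4.32 in NASH. It thus passed only through NASH, and it is among those counted as higher below. In whole liver RNA, fewer cells that express a gene and less RNA per cell cannot be told apart. Of the 12, 9 were higher and 3 lower in NASH, with a median difference of 0.06 and a range from −0.29 to 0.66, while 47.1% of all tested probe sets were higher, with a median of −0.02. At an unadjusted p under 0.05 there was 1 member, a Cyp2c11 probe set, against 7.86% of all tested. The same probe set was the only member whose groups did not overlap, which held for 14.3% of all tested.

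**Figure D1:**
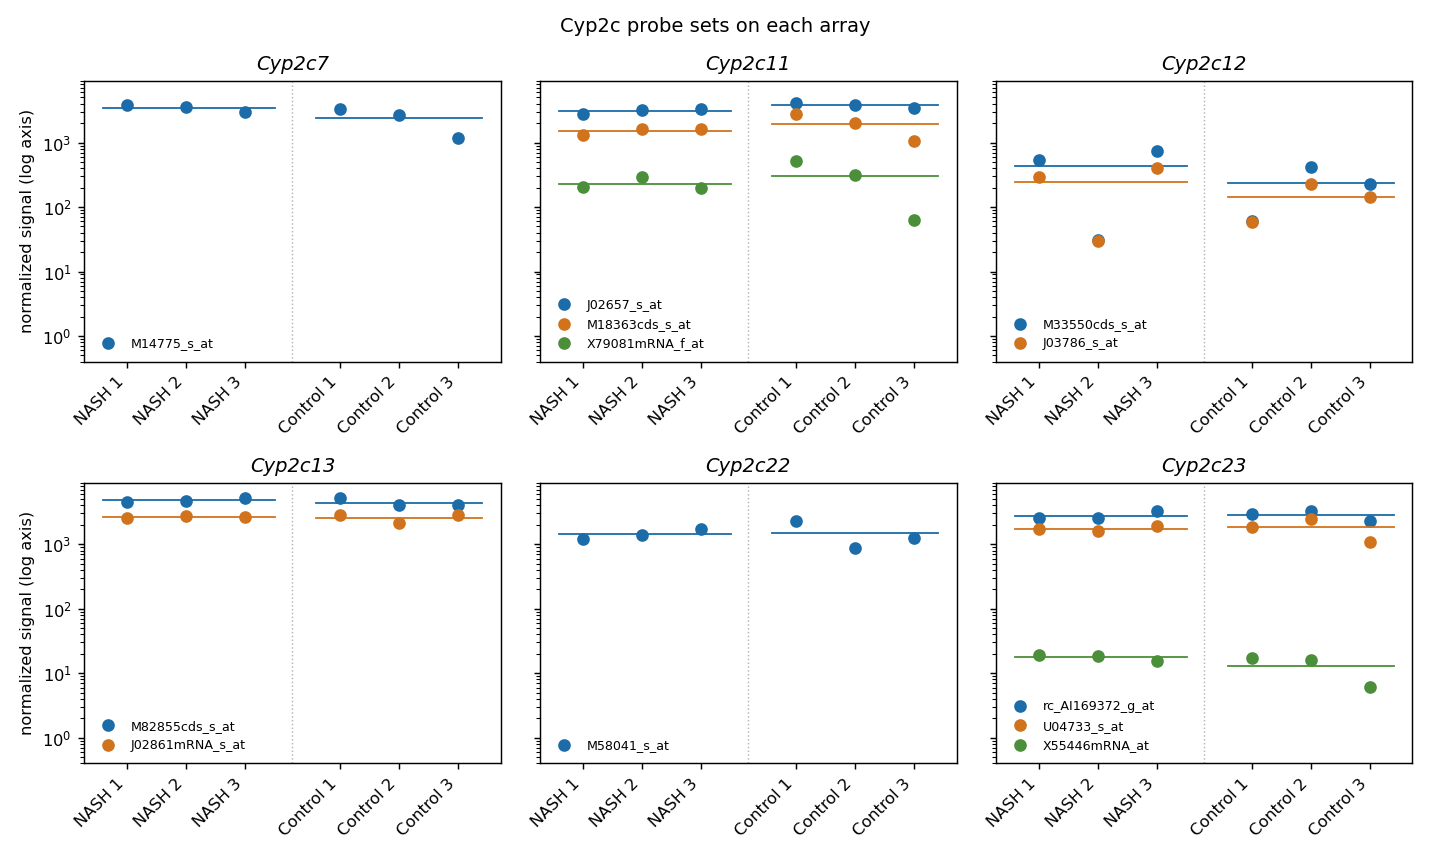
Normalized signal (log axis) of the 12 Cyp2c probe sets on each of the 6 arrays, with 1 panel per gene, with NASH left of Control. Points are arrays, colours are probe sets and bars are the mean of 3 arrays; Cyp2c12 spans a 23.9-fold range within NASH, while both Cyp2c13 probe sets stay within 1.35-fold over all arrays.

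Cyp2c12, the female-typical member and a hydroxylase of sulfated steroids, was the most variable. Probe set M33550cds_s_at read 537, 30.9 and 740.1 in NASH 1, NASH 2 and NASH 3, against 60.5, 419 and 227 in Control 1, Control 2 and Control 3. Probe set J03786_s_at read 287, 29.9 and 408 in the NASH arrays, against 59.2, 228 and 142 in the Control arrays. On both probe sets NASH 3 and NASH 1 were the highest arrays and NASH 2 was the lowest, so that the Control values all fell between the extremes of NASH. Control 1 was the second lowest array on both.

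The highest and the lowest reading of M33550cds_s_at differed by 23.9-fold, and both were NASH arrays. For J03786_s_at that range was 13.6-fold. The range of M33550cds_s_at over the 6 arrays was wider than that of 99.5% of all tested probe sets, and that of J03786_s_at wider than 98.9%. Both probe sets ordered the arrays alike (Pearson r = 0.997 over 6 arrays). They carry the same gene symbol and may share transcripts, so they are not independent readings.

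Between the diets Cyp2c12 differed by 0.38 ± 1.18 with M33550cds_s_at (limma adjusted p = 0.949) and by 0.30 ± 0.93 with J03786_s_at (adjusted p = 0.948). The 95% interval of the first reached from −2.35 to 3.10, or from 0.196 to 8.58 times the Control signal. Its direction depended on which arrays were used. Without NASH 2 the differences were 1.80 and 1.44 (limma adjusted p = 0.859 and 0.823), and without NASH 3 they were −0.45 and −0.39. They also turned sign without NASH 1 (−0.22 and −0.14) and without Control 1 (−0.39 and −0.22). Without both Control 2 and NASH 2 they were 2.40 and 1.87 (limma adjusted p = 0.267 and 0.241). That choice leaves out the highest Control array and the lowest NASH array of both probe sets, so it favours a higher value in NASH. NASH 2 was the array with the fat and muscle transcripts and the lowest one for 8 of 20 hepatocyte markers, and the part of either in its low Cyp2c12 was not tested.

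Cyp2c11, the main male-typical P450 of rat liver, hydroxylates testosterone and epoxidizes arachidonic acid. Its probe set J02657_s_at read 2799, 3157 and 3334 in NASH 1, 2 and 3, against 4164, 3765 and 3401 in Control 1, 2 and 3. All 3 NASH readings lay below the lowest Control reading, by a narrow margin, and 7.76% of all tested probe sets lay apart in that direction. The mean was 3096 ± 273 in NASH and 3777 ± 382 in Control (SD, n = 3 each). The difference was −0.29 ± 0.12, a 1.22-fold lower signal in NASH, with a limma unadjusted p of 0.0477 and an adjusted p of 0.619, which does not pass. It stayed between −0.36 and −0.21 with each array left out in turn. On the values as deposited it was −0.48, where the median of all tested probe sets was −0.17.

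The other Cyp2c11 probe sets did not separate the diets. M18363cds_s_at read 1317, 1629 and 1629 in the NASH arrays, against 2767, 1994 and 1054 in the Control arrays. The Control readings lay on both sides of NASH, and the difference was −0.24 ± 0.32 (limma adjusted p = 0.862), or −0.47 on the values as deposited. X79081mRNA_f_at, of the type whose probes can match several members of a sequence family, read 208, 288 and 196 in NASH, against 519.9, 315 and 62.7 in Control, a difference of 0.06 ± 0.68 (adjusted p = 0.987).

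The size of these differences, and for the last 2 probe sets their sign, depended on Control 1 and on Control 3, the array with the high actin ratio. Without Control 3 the 3 Cyp2c11 probe sets differed by −0.36, −0.63 and −0.83, all lower in NASH, and without Control 1 by −0.21, 0.07 and 0.68. M18363cds_s_at and X79081mRNA_f_at varied alike over the 6 arrays (r = 0.916), while J02657_s_at correlated with them at 0.736 and 0.417. The part of RNA quality in these readings was not tested.

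Cyp2c13, the other male-typical member and a steroid hydroxylase, was the steadiest. M82855cds_s_at read 4602, 4649 and 5144 in NASH, against 5144, 4134 and 4026 in Control, and the groups overlapped. J02861mRNA_s_at read 2542, 2711 and 2635 in NASH, against 2861, 2116 and 2819 in Control. All NASH readings of J02861mRNA_s_at fell inside the Control range.

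The Cyp2c13 differences were 0.12 ± 0.12 (limma adjusted p = 0.817) and 0.03 ± 0.14 (adjusted p = 0.965). Their 95% intervals, −0.16 to 0.40 and −0.30 to 0.36, were, with that of J02657_s_at, the narrowest of the 12. In fold terms the signal in NASH lay between 0.896 and 1.32 times that in Control for M82855cds_s_at. The ranges over the 6 arrays were 1.28-fold and 1.35-fold, narrower than in all but 5.19% and 9.88% of tested probe sets. Both probe sets were bright, with at least 99.4% and 98.4% of probe sets dimmer on every array. The ranking was not limited to probe sets of like brightness, so it does not set Cyp2c13 apart from other bright genes. NASH 2 lay within the spread of the other arrays for Cyp2c13, at 4649 and 2711, while it was the lowest array for Cyp2c12.

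**Figure D2:**
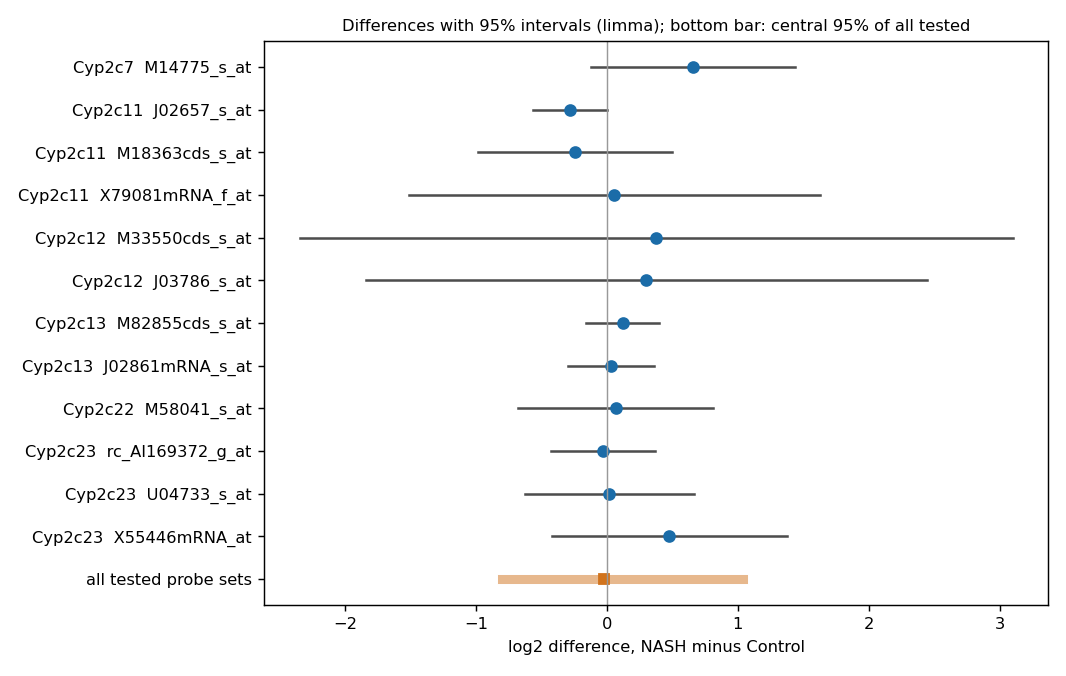
Log2 difference, NASH minus Control, of each Cyp2c probe set (point) with its 95% interval from limma, and the median (square) and central 95% of the differences of all 5244 tested probe sets (bottom bar, −0.80 to 1.04). All 12 points lie inside the bottom bar, and the Cyp2c12 intervals are the widest.

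Cyp2c7, more abundant in female than in male rats and able to hydroxylate retinoic acid, had the largest difference of the family. Its probe set M14775_s_at read 3805 in NASH 1, 3535 in NASH 2 and 3009 in NASH 3, against 3282 in Control 1, 2635 in Control 2 and 1191 in Control 3. The lowest NASH reading lay below the highest Control reading, so the groups overlapped, and Control 3 was far below the rest. The mean was 3450 ± 405 in NASH and 2369 ± 1071 in Control (SD, n = 3 each). The difference was 0.66 ± 0.34, or 1.58-fold, with a limma adjusted p of 0.627, and it was 0.22 without Control 3 and 0.43 on the values as deposited. Those readings of Control 3 came from the array with the high actin ratio, whose part in them was not tested.

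A further 3 probe sets carry the symbol Cyp2c7 together with that of a second gene, and are given by probe set only since they may read transcripts of both. They were chosen for description after their values were seen. M31031mRNA_f_at read 4090, 4928 and 4202 in NASH, against 3863, 2555 and 3085 in Control. M18335_f_at read 3669, 4202 and 3601 in NASH, against 3501, 2819 and 2328 in Control. In both, every NASH reading lay above every Control reading, which held in that direction for 6.54% of all tested probe sets.

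The remaining probe set, rc_AA945573_f_at, read 3136, 3032 and 3434 in NASH, against 3256, 1763 and 2249 in Control, with overlap through Control 1. The differences of the 3 shared probe sets were 0.49 ± 0.16, 0.42 ± 0.16 and 0.45 ± 0.21, with limma adjusted p-values of 0.508, 0.582 and 0.619. Control 3 was the lowest array in M18335_f_at, and Control 2 in the others. The 4 probe sets may share transcripts, and which probes they share was not checked, so they are not taken as 4 independent measurements of Cyp2c7.

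The instrument records held a filled wash entry for NASH 1, NASH 2, Control 1 and Control 3 and a blank one for the other arrays, so values were also taken within each kind. With filled entries the difference was 0.89 for Cyp2c7 (M14775_s_at), −0.34 for Cyp2c11 (J02657_s_at), and 0.16 and 0.03 for the Cyp2c12 probe sets M33550cds_s_at and J03786_s_at. With blank entries, which leave NASH 3 and Control 2 and no test, they were 0.19, −0.18, 0.82 and 0.83. For Cyp2c22 (M58041_s_at) they were −0.39 with filled and 0.97 with blank entries. Over the 12 member probe sets, 7 had the same sign in both kinds and 5 had opposite signs.

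Cyp2c22, which hydroxylates retinoic acid in rat liver, was measured by 1 probe set, M58041_s_at. It read 1223, 1376 and 1744 in NASH, against 2274, 890 and 1264 in Control. The highest and the lowest reading were both Control arrays, and the difference was 0.07 ± 0.32 (limma adjusted p = 0.965, interval −0.68 to 0.81). It was 0.43 without Control 1 and −0.24 without Control 2.

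Cyp2c23, an arachidonic acid epoxygenase of liver and kidney, differed little on its brighter probe sets. Probe set rc_AI169372_g_at read 2530, 2530 and 3282 in NASH, against 2931, 3317 and 2301 in Control. U04733_s_at read 1740, 1607 and 1891 in NASH, against 1884, 2495 and 1081 in Control. On both, Control 2 was the highest and Control 3 the lowest array, and NASH lay between.

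The differences were −0.03 ± 0.17 and 0.02 ± 0.28 (limma adjusted p = 0.972 and 0.993), and leaving out Control 3 gave −0.18 and −0.32. The remaining probe set, X55446mRNA_at, was dim, with 19.2, 18.6 and 15.7 in NASH, against 17.1, 16.2 and 6.16 in Control. Its difference of 0.47 ± 0.39 (adjusted p = 0.770) shrank to 0.08 without Control 3. This probe set followed that of Cyp2c7, M14775_s_at, more closely (r = 0.988 over 6 arrays) than the other Cyp2c23 probe sets (0.459 and 0.753), and both were lowest in Control 3.

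**Figure D3:**
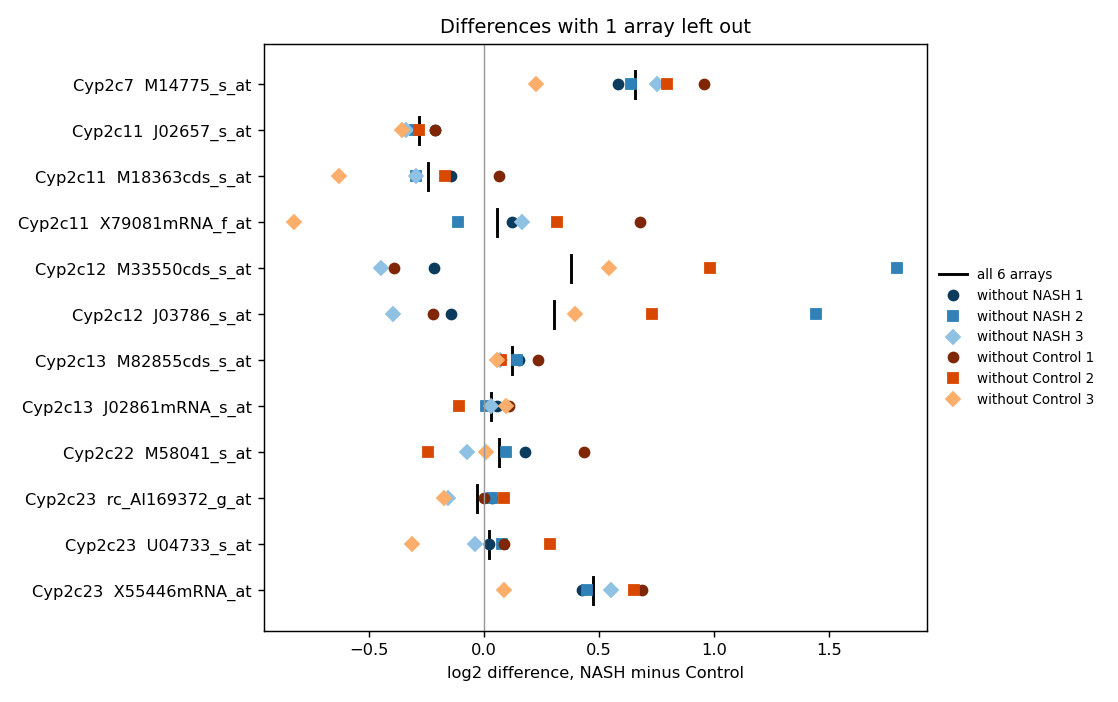
Log2 difference, NASH minus Control, of each Cyp2c probe set with all 6 arrays (black line) and with each array left out in turn (symbols). The Cyp2c12 values spread from −0.45 without NASH 3 to 1.80 without NASH 2, and leaving out Control 3 (light orange diamonds) gives the lowest value except for Cyp2c12, Cyp2c22 and J02861mRNA_s_at of Cyp2c13.

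The members did not vary together. Over the 58 pairs of probe sets of different genes, the correlation over the 6 arrays had a median of 0.174 and ran from −0.711 to 0.988, with 26 pairs below 0. Over the 8 pairs of the same gene it ran from 0.416 to 0.997, with a median of 0.744. These correlations share their arrays, and Control 3 weighs on many of them. Cyp2c6v1, a further liver Cyp2c gene that was added after its values were seen, differed by 0.11 and 0.10 on its 2 probe sets (limma adjusted p = 0.952 and 0.90).

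For the brightest probe set of each member, the 3 genes with the most similar pattern were taken from 3134 genes, each by the Pearson correlation of log2 values over the same 6 arrays. For Cyp2c12 they were Zbtb38 (r = 0.991), Vegfd (0.984) and Togaram1 (0.967), which are not P450 genes. For Cyp2c7 they were Rap1b (0.999), Ptpn12 (0.992) and Gdi2 (0.990), and for Cyp2c11 they were Omd (0.965), Nat2 (0.959) and Slc1a2 (0.950). For Cyp2c13 they were Syt8 (0.981), Ppat (0.956) and Uso1 (0.953). For Cyp2c22 they were Ifnar1 (0.961), Rgs12 (0.960) and Alox15 (0.957), and for Cyp2c23 Adcy6 (0.969), Gabbr1 (0.942) and the sterol hydroxylase Cyp27a1 (0.929). None of the 18 passed the test between the diets (limma adjusted p from 0.619 to 0.997). With 3134 genes searched over 6 arrays, values this high can come from the search alone. Whether these genes are regulated together was not tested.

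Other sex-dependent transcripts of rat liver were set beside the family. Of 5 tested female-predominant transcripts outside the Cyp2c genes, 5 were higher in NASH, with a median difference of 0.84, and 0 passed the limma test, while 4 had an unadjusted p under 0.05. Such a p with a higher signal in NASH was found for 3.81% of all tested probe sets. Over all 3140 genes tested, 1393 were higher and the median was −0.04. At an unadjusted p under 0.05 there were 256 of these genes, or 8.15%, which is the background for the counts at that p in each list below. Cyp3a9, a steroid hydroxylase, read 136, 132 and 134 in NASH, against 78.5, 44.4 and 43.8 in Control, a difference of 1.29 ± 0.26 (adjusted p = 0.198).

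The testosterone hydroxylase Cyp2a1 read 1127, 916 and 1183 in NASH, against 558, 753 and 509 in Control, a difference of 0.84 ± 0.20 (adjusted p = 0.348). The sulfotransferase Sult2a1 differed by 0.53 ± 0.12 (adjusted p = 0.309), and the prolactin receptor Prlr by 2.18 ± 0.59 on 1 probe set (adjusted p = 0.437) and by −0.06 to 2.39 on its others. For Cyp3a9, Cyp2a1, Sult2a1 and that Prlr probe set every NASH reading was above Control, as it was for 6.54% of all tested probe sets. NASH 2 read close to the other NASH arrays for Cyp3a9 and Sult2a1, unlike for Cyp2c12. NASH 2 as the lowest NASH array was not particular to Cyp2c12. Cyp2c6v1 (M14776_f_at) read 1721, 913 and 1649 in NASH 1, 2 and 3, against 1971, 1287 and 818 in Control. Its probe set rc_AA945571_s_at read 2968, 2459 and 2662, against 3100, 1983 and 2555. The P450 gene Cyp2b2 read 1292, 497 and 1373, against 373, 334 and 338. In these a Control array was the lowest of all, unlike for Cyp2c12.

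Of 7 tested male-predominant transcripts outside the Cyp2c genes, 3 were higher and 4 lower in NASH, with a median difference of −0.03, 0 past the limma test and 1 at an unadjusted p under 0.05. Cyp3a2, a male-typical P450, differed by 0.54 ± 0.17 (limma adjusted p = 0.503), Cyp2a2 by 0.32 ± 0.14 (0.619), and the odorant-binding protein gene Obp3 by −0.54 ± 0.30 (0.647) and, on its other probe set, by −0.82. Male-typical genes gave values in both directions, as Cyp2c11 and Cyp2c13 did.

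**Figure D4:**
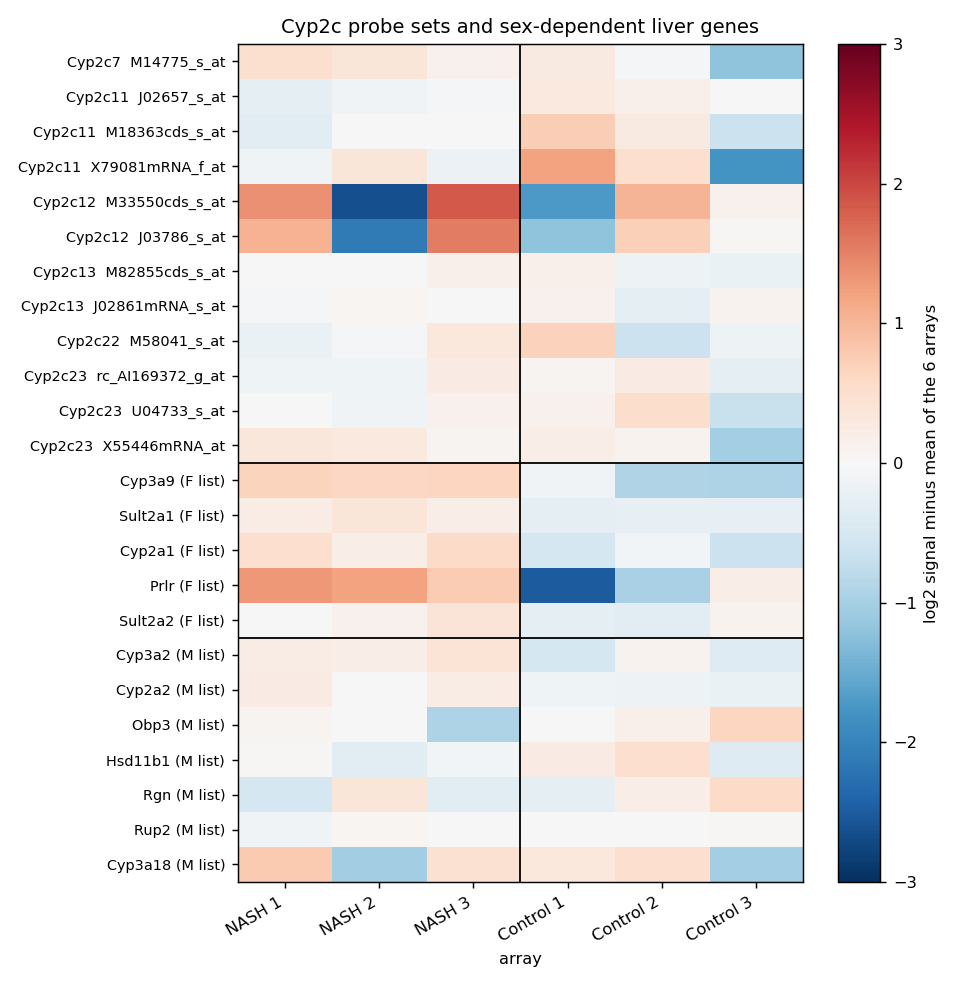
Log2 normalized signal of each Cyp2c probe set (top), of the tested female-predominant genes (F list) and of the tested male-predominant genes (M list), as the deviation from the mean of the 6 arrays, with NASH left of Control. Cyp2c12 is highest in NASH 3 and lowest in NASH 2, whereas Cyp3a9 reads 132 to 136 in NASH and 43.8 to 78.5 in Control.

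Genes of growth hormone signalling gave 3 higher and 8 lower of 11 tested, with a median difference of −0.06, 0 past the limma test and 1 at an unadjusted p under 0.05. The growth hormone target Cish, a feedback inhibitor, read 32.0, 26.0 and 32.2 in NASH, against 62.7, 76.7 and 41.7 in Control, a difference of −0.92 ± 0.26 (adjusted p = 0.443). Igf1, of the same list, went the other way, by 0.32 ± 0.17 on its brightest probe set (limma adjusted p = 0.641). Its other probe sets differed by −0.17 to 1.16. The receptor gene Ghr differed by −0.03 ± 0.26 and Stat5b by −0.06 ± 0.22. Onecut1 differed by −0.66 ± 0.31 (adjusted p = 0.619). Of 17 tested transcription factors and nuclear receptors known to act on P450 genes, 3 were higher and 14 lower, with a median of −0.26, 0 past the test and 3 at an unadjusted p under 0.05. Foxa2 differed by −0.97 ± 0.31, the glucocorticoid receptor Nr3c1 by −0.54 ± 0.19 and the retinoid receptor Rxra by 0.54 ± 0.23 (adjusted p = 0.503, 0.544 and 0.619), and a further Nr3c1 probe set by −0.66.

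Among the other P450 enzymes of family 2, 9 of 12 tested were higher and 3 lower, with a median of 0.21, 0 past the limma test and 3 at an unadjusted p under 0.05. Cyp2b2, induced by phenobarbital-type agents, differed by 1.46 ± 0.37 and Cyp2f4 by −0.81 ± 0.24 (adjusted p = 0.393 and 0.452), and a further Cyp2b2 probe set by 1.17. The electron donors of P450 and the enzymes of haem supply had 9 of 13 higher and 4 lower, with a median of 0.04 and 0 past the test at either an adjusted or an unadjusted p under 0.05. Of 20 tested genes of fatty acid epoxides, hydroxylation and other eicosanoids, 10 were higher and 10 lower, with a median of −0.01, 0 past the test and 3 at an unadjusted p under 0.05. The fatty acid hydroxylase Cyp4a1 read 2429, 860 and 2767 in NASH, against 463, 467 and 768 in Control, a difference of 1.70 ± 0.44 (adjusted p = 0.397), and its other probe sets differed by 1.74 and 1.81. As for Cyp2c12, array NASH 2 was the lowest NASH array for Cyp4a1, but it lay above all Control arrays there. Of 13 tested retinoid genes 8 were higher and 5 lower, with a median of 0.06, 0 past the test and 1 at an unadjusted p under 0.05. Aldh1a1, which makes retinoic acid, differed by 1.01 ± 0.44 (adjusted p = 0.619).

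Acute phase and cytokine genes, whose rise in inflammation is known to accompany lower P450 expression, had 12 of 22 tested higher and 10 lower, with a median of 0.12, 0 past the limma test and 5 at an unadjusted p under 0.05. A2m differed by −0.83 ± 0.19 on its brightest probe set (adjusted p = 0.309) and by −0.93, −0.21 and 0.38 on its others, so the direction was not the same on all 4. Orm1 differed by 0.88 ± 0.26 (adjusted p = 0.452). Of the cell type lists, hepatocyte markers had 8 of 20 tested higher (median −0.06), adipose 8 of 8 (1.17), skeletal muscle 8 of 9 (0.92) and kidney 2 of 6 (−0.06). Cholangiocyte markers had 2 of 4 higher (0.01), Kupffer cell and macrophage 3 of 4 (0.16), stellate cell and fibroblast 4 of 8 (−0.07), endothelial 2 of 3 (0.22) and lymphocyte markers 5 of 7 (0.36), and 0 members of these lists passed the limma test. At an unadjusted p under 0.05 there were 4 hepatocyte markers and 1 each of adipose, endothelial and lymphocyte markers. Some markers dim in Control, such as Ucp1, Acta1, Tnnt3 and Coro1a, passed the filter only through NASH, which fixed their direction. The adipose and muscle medians leaned on NASH 2. Lpl read 37.0, 368 and 31.0 in NASH 1, 2 and 3, against 35.3, 34.3 and 25.9 in Control. Ckm read 20.1, 491 and 27.5, against 22.2, 48.4 and 15.6. Cidea, Ucp1 and Lipe, by contrast, lay above Control in every NASH array. The summed signal of 11 kidney markers, relevant to Cyp2c23, was 195 to 229 in NASH and 190 to 239 in Control.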

How the data were processed

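Each deposited value is the linear intensity that the MAS5 algorithm gives a probe set on an array, per the submitters' processing notes (version and scaling target not given in the sources used here). The array type is per the file headers, and groups are per the sample titles, since the free-text descriptions all carry the wording of 1 Control sample. Of 8799 probe sets, 59 controls were left out. Trimmed means differed between arrays, so arrays were quantile normalized. Log2 was taken after adding 2.21, the 10th percentile of all deposited values, which understates changes of dim probe sets, and 5244 probe sets with a mean log2 above the 40th percentile (3.94) were tested with limma 3.58.1 in R 4.3.3 (variance trend with intensity, Benjamini-Hochberg, 4 residual and 3.90 prior degrees of freedom). The number of arrays limits the precision. The test was checked on simulated data.

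The platform annotation gave 1 symbol for 7006 probe sets, several for 308 and none for 1426; 6994 matched RefSeq by gene ID and 0 symbols changed. Members and 18 gene lists (brightest tested probe set per gene) were chosen with earlier results of these data known. Named were all members, up to 4 genes a list by smallest p (some of them, with Ghr, Stat5b, Fgb and Tat added after their values were seen), and the 3 closest patterns per member. The fit was repeated with other scalings, offsets, filters, priors and thresholds, with weights or blocks, and with arrays left out. Replicate numbers were not taken as pairs: deviations of same-numbered arrays correlated at 0.05, −0.02 and 0.07.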

Additional observations from a re-analysis of the deposited data

How the results depend on the processing

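None of the 12 Cyp2c probe sets passed the limma test under any alternative that has a test (lowest adjusted p = 0.241). Over all 21 alternatives their directions turned in 37 of 251 repeated values, and only M14775_s_at (Cyp2c7) and J02657_s_at (Cyp2c11) never turned. Other filters, priors or blocks leave the differences as they are, so directions could not turn there. Over all tested probe sets 7 were called, against 14 at an adjusted p under 0.10, 14 as deposited, 0 without the filter (lowest adjusted p = 0.0553, 633 at an unadjusted p under 0.05), 3 without the variance trend, 18 with array weights, 3 with the wash record as a block, 16 without Control 2 and NASH 2, and 1 from the arrays with a filled wash record. With the replicate number as a block 1 was called, and Cyp2c7 had a limma adjusted p of 0.599. Its difference of 0.66 could not change there, because each number holds an array of each diet. With 1 array left out there were 0 to 17 calls: 17 without NASH 2, 0 without NASH 3, Control 1 or Control 3 (260, 510 and 414 at an unadjusted p under 0.05), and 1 without NASH 1 or Control 2.

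Without normalization the median of all tested probe sets was −0.17, and signs turned for X79081mRNA_f_at (−0.068), M82855cds_s_at (−0.11), J02861mRNA_s_at (−0.13), M58041_s_at (−0.11) and U04733_s_at (−0.14), values that lie above that shift. Median centring turned J02861mRNA_s_at (−0.0069) and U04733_s_at (−0.014). Array weights turned X79081mRNA_f_at (−0.64), J02861mRNA_s_at (−0.056), M58041_s_at (−0.25), rc_AI169372_g_at (0.00065) and U04733_s_at (−0.0044). Without Control 2 and NASH 2, J02861mRNA_s_at (−0.13), M58041_s_at (−0.21) and rc_AI169372_g_at (0.15) turned. The filled wash records turned J02861mRNA_s_at (−0.11) and M58041_s_at (−0.39). The blank ones (NASH 3 minus Control 2, with no test, chosen after seeing the data) turned X79081mRNA_f_at (−0.68), U04733_s_at (−0.40) and X55446mRNA_at (−0.036). The mean over its probe sets gave Cyp2c23 a difference of 0.15.

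With 1 array left out, differences ran from −0.63 to 0.066 for M18363cds_s_at, −0.83 to 0.68 for X79081mRNA_f_at, −0.45 to 1.80 for M33550cds_s_at, −0.39 to 1.44 for J03786_s_at, −0.11 to 0.11 for J02861mRNA_s_at, −0.24 to 0.43 for M58041_s_at, −0.18 to 0.087 for rc_AI169372_g_at and −0.32 to 0.29 for U04733_s_at. The cause of these changes was not tested. Among the 4 filled wash records all Control hybridizations came before those of NASH, so that order and diet cannot be told apart.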
